A study of Homo sapiens with 6 samples.

Results

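The ABC transporter genes were examined in progestin-treated endometrial cancer cells. Every gene whose annotated symbol is ABC followed by a letter from A to G and a number was taken, which gave 42 genes of the 19775 genes named on the arrays, and each gene was read from whichever of its probe sets was brightest on average over the 6 arrays. They fell into subfamilies A (11 genes), B (8 genes), C (11 genes), D (3 genes), E (1 gene), F (3 genes) and G (5 genes), and 96 of the 54613 probe sets tested carried one of these symbols alone.

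All cells were of the IKPRAB36 line, Ishikawa endometrial cancer cells stably transfected with both isoforms of the progesterone receptor, PRA and PRB. They were kept in DMEM/F12 medium with 5% charcoal-stripped serum, hygromycin and neomycin, and charcoal removes steroids from serum. Control cells were cultured for 48 h without medroxyprogesterone acetate (MPA), a synthetic progestin, and MPA cells had it at 1 nM for the same time. Whether the controls had a vehicle is not stated. RNA of each condition was hybridised to 3 Affymetrix U133 Plus 2 arrays, and signals are given on the log2 scale after RMA, a method that corrects background and sets the arrays to a common distribution. A single transfected line was used, so the values describe that line.

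ABC proteins bind and hydrolyse ATP, and most of them use that energy to move lipids, drugs, bile salts, peptides, heme or metabolites across a membrane. The letters name families of related sequence: A and G are rich in lipid transporters, B and C hold the drug efflux pumps, D works in peroxisomes and lysosomes, and E and F have no membrane domains and act on ribosomes. In tumors the efflux pumps ABCB1 (P-glycoprotein), ABCC1 (MRP1) and ABCG2 (BCRP) are best known for lowering the amount of chemotherapeutic drug inside the cell, and ABCA1 and ABCG1 export cholesterol. Steroid receptors such as PRA and PRB bind hexamers of the form TGTTCT, or AGAACA on the opposite strand, usually as inverted pairs.

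The RefSeq promoter sequences used here (GRCh38.p14) held entries for 33 of the 42 genes. A single hexamer, TGTTCT or AGAACA on either strand and with no other motif searched, lay in the 250 bases before the transcription start of 4 of them (12.1%: ABCA12, ABCB11, ABCG5 and ABCG8), beside 3397 of all 27305 promoters (12.4%). The matches began at position -13 for ABCA12, -36 for ABCB11, -47 for ABCG5 and -90 for ABCG8, counted back from each start. ABCG5 and ABCG8 are read in opposite directions from starts with only 131 bases between them, and their match is one and the same hexamer. That interval, chr2:43838840-43838970 on the plus strand, is shown because these neighbours share it, with the hexamer in capitals. The 250 bases before ABCC5, chr3:184017885-184018134 on the minus strand, are shown because ABCC5 had the smallest p-value among the 42 genes, and they held no such hexamer.

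ABCG5-ABCG8 interval: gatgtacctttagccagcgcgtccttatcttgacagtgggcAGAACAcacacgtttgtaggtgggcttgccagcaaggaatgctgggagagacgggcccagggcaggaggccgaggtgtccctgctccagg

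ABCC5 upstream: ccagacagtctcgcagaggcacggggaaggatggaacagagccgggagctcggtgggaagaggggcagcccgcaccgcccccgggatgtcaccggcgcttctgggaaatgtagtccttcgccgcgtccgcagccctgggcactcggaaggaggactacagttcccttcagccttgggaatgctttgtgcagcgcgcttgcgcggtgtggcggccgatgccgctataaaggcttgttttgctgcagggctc

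A match is a description of these letters only, since binding of the receptor was not measured. The share of ABC promoters with the hexamer was near the share of all promoters.

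Array medians ran from 5.17 to 5.29. MPA 3 differed from the other arrays in the poly-A controls, which are added to the RNA before labeling: their mean signal was 6.60 there and 8.09 to 8.90 elsewhere. The treatment was visible in 4 of 5 progestin response genes measured (FKBP5, SGK1, TSC22D3 and PDK4, all higher with MPA), and the signal of PGR, the progesterone receptor gene, was above every array median on all arrays. By their group means all 9 epithelial markers were above the array medians, as were 63.4% of all genes. So were 1 of 3 leukocyte, 1 of 4 endothelial and 4 of 5 stromal markers. No marker was called, beside 1.74% of all genes called higher and 1.16% lower. Every MPA array was below every control array for 3 epithelial and 2 stromal markers, beside 7.98% of all genes. Every MPA array was above for 2 epithelial and 1 endothelial, beside 8.96% of all genes. Log2 fold changes ran from -0.76 to 0.48 in epithelial and from -0.81 to 0.056 in stromal markers. The description of the treatment carries n = 3, which points to 3 cultures, but does not say that each array had a culture of its own. If the arrays were technical repeats, the p-values would measure only technical spread. RNA was taken from whole cultures, where fewer cells carrying a transcript and less of it in each cell cannot be told apart.

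None of the 42 ABC genes was called higher or lower with MPA. A call needed an adjusted p under 0.05 (limma with Benjamini-Hochberg adjustment over all probe sets tested) and a change of at least 0.32 on the log2 scale, the smallest fold kept by the study's methods. Over all genes, 345 (1.74%) were called higher and 229 (1.16%) lower. When the arrays were scaled by housekeeping genes the split over all genes became 299 higher and 309 lower, with 0 ABC genes in either direction. SAM, the test named in the study's methods, also called 0 of the 42 genes, beside 613 higher and 422 lower over all genes. The adjusted p-values of the ABC genes ran from 0.324 for ABCC5 to 0.999.

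Without the adjustment, 1 of 42 ABC genes (ABCC5, lower with MPA) had a p under 0.05, where 11.8% of all genes did. All MPA arrays lay above all control arrays for ABCA3, ABCC4 and ABCC13, 3 of 42 genes beside 8.96% of all genes. They lay below all control arrays for ABCC5, 1 of 42 genes beside 7.98% of all genes. With 3 arrays in each group an exact two-sided permutation test cannot give a p below 0.1. The ABC genes thus had no larger a share past any of these lines than the genes on the arrays as a whole, and this difference of shares was not tested.

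The width of the intervals sets what could have been missed. The 95% interval of the log2 fold change (limma, not adjusted for the number of genes) lay within 2-fold in either direction for 41 of 42 ABC genes (97.6%), beside 96.0% of all genes. The exception was ABCB10, whose interval ran from -0.020 to 1.04. For 32 genes (76.2%) the interval lay within 1.5-fold, beside 78.6% of all genes. This held for all 16 ABC genes whose means were below every array median, beside 91.6% of all such genes. It held for 12 of the 20 ABC genes above every median (60%), beside 72.7% of all such genes. Changes as large as the minimum for a call therefore remained inside the interval of many members, and a missed threshold does not show that their levels were equal. Changes were also smaller among all genes below every median (median absolute log2 fold change 0.082) than among those above (0.129). The interval of a dim gene bounds its change in signal, and whether it bounds the change in transcript was not tested.

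**Figure D1:**
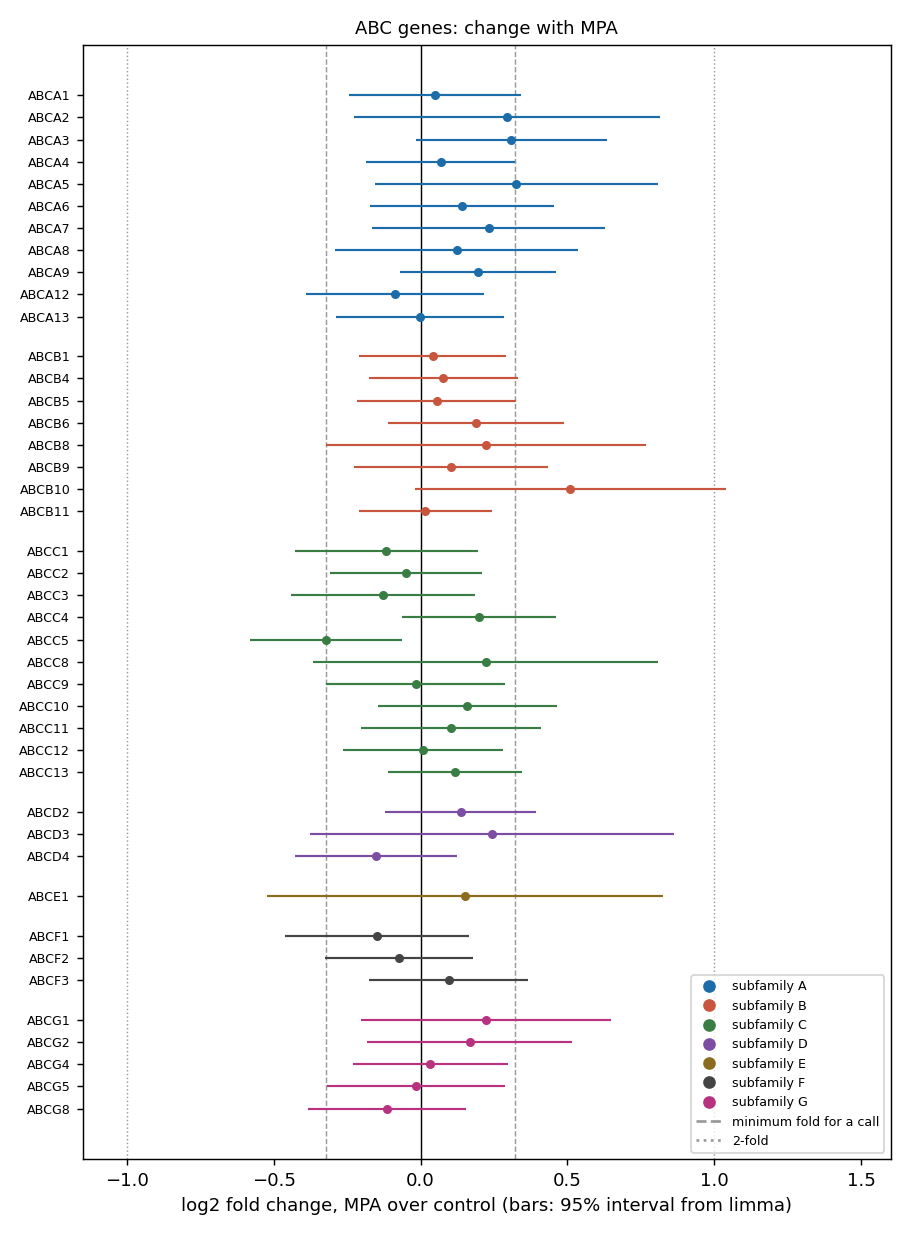
Log2 fold change (MPA over control) of the 42 ABC genes by subfamily, with bars for the 95% interval from limma, dashed lines at the smallest change that could be called (0.32) and dotted lines at 2-fold. The interval of ABCC5 is the only one that does not cross 0, and that of ABCB10 is the only one that passes a 2-fold line.

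The median log2 fold change was 0.099 over the ABC genes and 0.021 over all genes, and 30 of 42 ABC genes (71.4%) lay above 0 beside 55.3% of all genes. Of the 12 housekeeping genes measured, 4 had every MPA array above every control array, beside 8.96% of all genes. None had every MPA array below, beside 7.98% of all genes. PGK1 (0.38) and TFRC (0.32) had an unadjusted limma p under 0.05, so the reference was not level in all its genes. Scaling by these housekeeping genes shifted every gene alike, by -0.071. It gave a median of 0.029 with 23 of 42 ABC genes above 0, beside a median of -0.050 and 37.3% above 0 over all genes. Without MPA 3 the median was 0.022 with 24 of 42 genes above 0, beside -0.026 and 43.5% over all genes. The ABC genes stayed above all genes by these measures, and their difference was not tested. MPA 3 was the highest of the MPA arrays for 29 of 42 ABC genes and for 58.9% of all genes.

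By subfamily, the median was 0.14 in A, 0.090 in B, 0.0097 in C, 0.14 in D, 0.15 in E (ABCE1 alone), -0.074 in F and 0.034 in G. In subfamily B 8 of 8 genes taken by symbol lay above 0, and 6 of 8 did without MPA 3. The common shift of housekeeping scaling left 5 of 8 above 0, where the share of all genes also fell. The family members with other symbols, TAP1, TAP2 and CFTR, were not counted in any subfamily. They gave -0.23, -0.69 and -0.011, and TAP2 was called lower. Of the 42 genes, 2 were higher by at least 0.32 on the log2 scale (ABCB10 and ABCA5, 4.76% beside 6.54% of all genes) and 1 was lower by as much (ABCC5, 2.38% beside 4.96% of all genes).

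**Figure D2:**
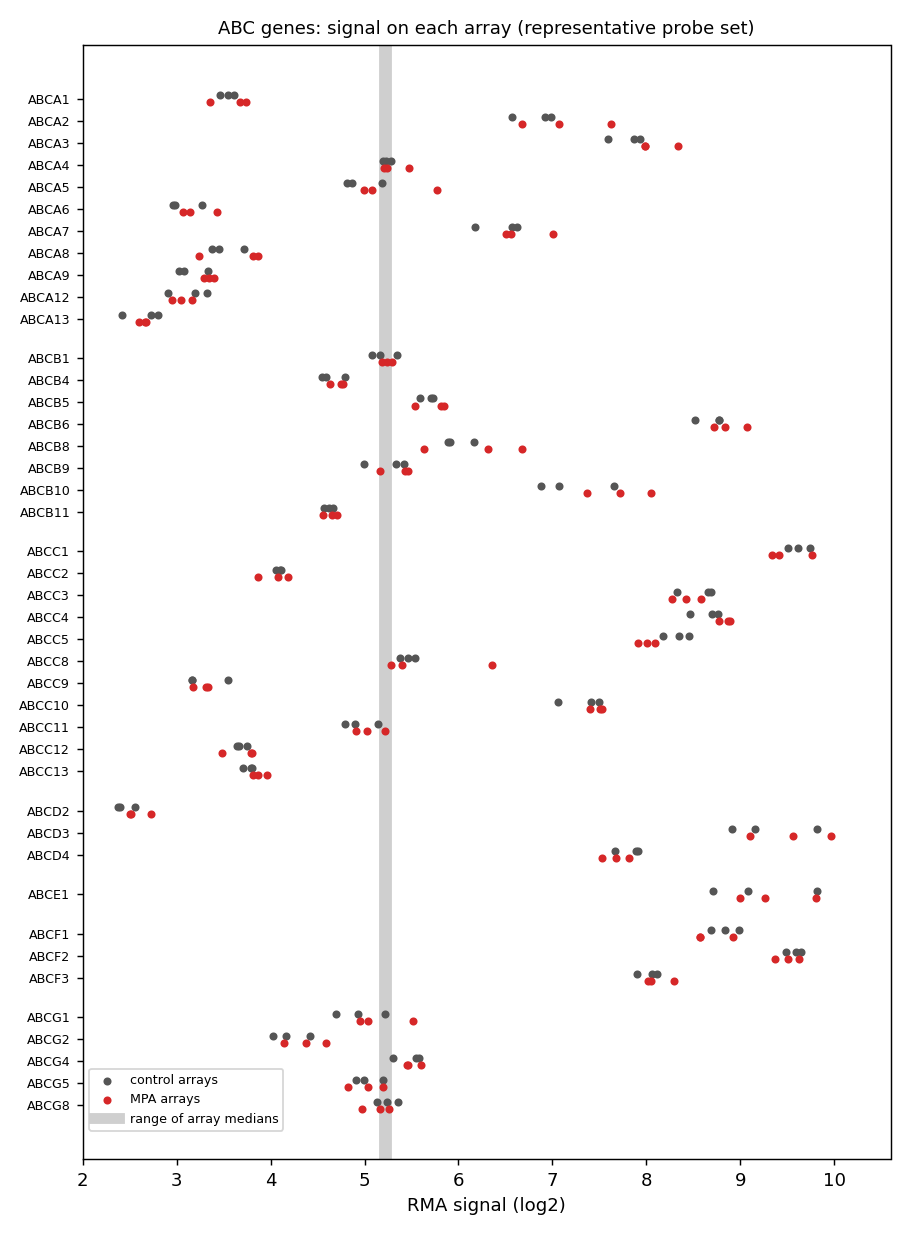
Signal (RMA, log2) of each ABC gene on the 3 control arrays (grey) and the 3 MPA arrays (red), grouped by subfamily from A at the top to G, with a grey band for the range of array medians (5.17 to 5.29). The groups overlap for all but ABCA3, ABCC4, ABCC5 and ABCC13, and the means of both groups lie to the left of the band for 16 genes.

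Many members gave little signal in these cells. The means of both groups were above every array median for 20 of the 42 genes (47.6%, beside 63.4% of all genes), below every median for 16 and neither for 6. All 3 F genes and ABCE1 were above the medians, while 6 of 11 A genes and 5 of 11 C genes were below them. Calls were rare among dim genes on the whole: 15 were higher and 7 lower of the 6555 genes whose means were below every median, beside 286 and 206 of the 12541 genes above them.

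Subfamily A moves lipids. ABCA1, which passes cholesterol and phospholipid to apolipoprotein A-I, gave signals of 3.54, 3.61 and 3.46 on the control arrays and 3.68, 3.35 and 3.73 on the MPA arrays. The groups overlapped and all values were below the array medians, with a log2 fold change of 0.051 (95% interval -0.24 to 0.34, limma adjusted p = 0.964). ABCA1 had 4 probe sets, all of them dim. One of the others read 3.10, 3.05 and 3.27 in controls and 2.87, 2.82 and 2.82 with MPA, without overlap, at -0.30 (limma adjusted p = 0.305), while the remaining probe sets gave 0.024 and 0.065.

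ABCA3, which loads lipid into the lamellar bodies of the lung, was the only A gene without overlap between groups. Its signals were 7.93, 7.59 and 7.87 in controls and 7.99, 7.99 and 8.34 with MPA, a log2 fold change of 0.31 (-0.017 to 0.63, limma adjusted p = 0.526). The lowest MPA array was only slightly above the highest control array, and without MPA 3 the value was 0.19. ABCA2, an endosomal and lysosomal lipid transporter, and ABCA7, a phospholipid transporter known from Alzheimer risk, gave 0.30 and 0.23 over all arrays and 0.047 and 0.075 without MPA 3, on which both read highest.

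ABCA5, ABCA6, ABCA8 and ABCA9 stand side by side in the genome in the RefSeq gene order ABCA8, ABCA9, ABCA6, ABCA10, ABCA5. Their log2 fold changes were 0.12 for ABCA8, 0.20 for ABCA9, 0.14 for ABCA6 and 0.33 for ABCA5, with adjusted p-values of 0.679 or more in limma. ABCA5 was near the array medians, at 4.87, 5.19 and 4.81 in controls and 5.08, 5.77 and 4.99 with MPA, and MPA 2 alone read above all controls, without which the value was 0.079. The other genes of this cluster were below the medians on every array. The remaining A genes were the retinal flippase ABCA4 at 0.068, ABCA12, which carries lipid in keratinocytes, at -0.087, and the very large ABCA13 at -0.0014.

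Subfamily B holds P-glycoprotein. ABCB1 gave signals of 5.08, 5.35 and 5.17 in controls and 5.19, 5.29 and 5.24 with MPA. The MPA values lay inside the control range and around the array medians, with a log2 fold change of 0.041 (95% interval -0.21 to 0.29, limma adjusted p = 0.966). Its second probe set, below the medians, gave 0.017. ABCB4, the phosphatidylcholine transporter of bile that neighbours ABCB1 in the genome, gave 0.077 at signals below the medians.

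ABCB10, a transporter of the inner mitochondrial membrane needed for heme synthesis in red cell precursors, had the largest fold change of the 42 genes and was singled out after its values were seen. It read 6.87, 7.66 and 7.07 in controls and 7.72, 8.05 and 7.36 with MPA. The groups overlapped because control 2 was above MPA 3, and the log2 fold change was 0.51 (limma adjusted p = 0.516). With single arrays left out it ran from 0.34 without MPA 2 to 0.74 without control 2, with adjusted p-values from 0.135 to 0.935. ABCB10 had a single probe set.

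None of the other B genes taken by symbol was called. ABCB6, linked to porphyrin transport, gave 0.19 at signals above the medians, and its dimmer probe set gave -0.016. ABCB8, a mitochondrial protein, gave 0.22 over all arrays and -0.012 without MPA 3. ABCB9, a lysosomal peptide transporter, gave 0.10, the bile salt pump ABCB11 gave 0.016 and ABCB5 gave 0.055.

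Subfamily C holds the multidrug resistance proteins and the sulfonylurea receptors. ABCC1, or MRP1, which exports glutathione conjugates and drugs, was bright at 9.61, 9.51 and 9.74 in controls and 9.42, 9.34 and 9.76 with MPA. MPA 1 and MPA 2 read below every control and MPA 3 above every control, so the groups overlapped, with a log2 fold change of -0.12 (95% interval -0.43 to 0.20, limma adjusted p = 0.891). Without MPA 3 it was -0.24 (adjusted p = 0.477), and the second probe set gave 0.080 over all arrays.

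ABCC5, or MRP5, which exports cyclic nucleotides, had signals of 8.34, 8.18 and 8.45 in controls and 8.01, 7.91 and 8.09 with MPA. Every MPA array was below every control array. The log2 fold change was -0.32 (95% interval -0.58 to -0.063), and the limma adjusted p of 0.324 did not pass. Leaving out single arrays gave -0.26 to -0.39 with adjusted p-values from 0.198 to 0.835. The other ABCC5 probe sets gave -0.11 and -0.10, with overlap between the groups.

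ABCC4, or MRP4, which exports cAMP and prostaglandins, was singled out after its values were seen because several of its probe sets separated the groups. The brightest read 8.47, 8.77 and 8.70 in controls and 8.87, 8.90 and 8.77 with MPA, a log2 fold change of 0.20 (limma adjusted p = 0.663). The next probe sets gave 0.26 and 0.29 (adjusted p = 0.559 and 0.574), also with every MPA array above every control array. The gaps between groups were narrow, and the dimmest probe set gave 0.092 with overlap. Every MPA array lay above every control array in 9 of the 96 ABC probe sets, beside 4336 of all 54613 probe sets. Probe sets of one gene read the same RNA samples and are not replicates of one another.

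ABCC8 and ABCC9 encode SUR1 and SUR2, the sulfonylurea receptors that pair with the pores KCNJ11 and KCNJ8 to form ATP-sensitive potassium channels. ABCC8 read 5.38, 5.46 and 5.53 in controls and 5.28, 5.40 and 6.36 with MPA. MPA 3 alone was high, and the log2 fold change of 0.22 became -0.12 without it. ABCC9 gave -0.017 and was below the array medians on every array, with 5 probe sets from -0.11 to 0.063.

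None of the remaining C genes was called. ABCC3 (MRP3) gave -0.13 with 5 probe sets from -0.13 to 0.085, and ABCC10 (MRP7) gave 0.16, both at signals above the medians. ABCC2 (MRP2), the canalicular export pump, gave -0.049 below the medians. The neighbours ABCC12 and ABCC11 gave 0.0097 and 0.10. ABCC13, which is regarded as a pseudogene in humans, gave 0.12 with all MPA arrays (3.86, 3.96 and 3.81) just above all controls (3.79, 3.80 and 3.70) at signals far below the medians.

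Subfamily D carries fatty acyl groups into peroxisomes and cobalamin out of lysosomes. ABCD3, or PMP70, gave 8.92, 9.82 and 9.15 in controls and 9.56, 9.96 and 9.10 with MPA, a log2 fold change of 0.24 (limma adjusted p = 0.883). Control 2 and MPA 2 read highest and the groups overlapped, and with single arrays left out the value ran from 0.033 without MPA 2 to 0.51 without control 2. The second ABCD3 probe set read 7.51, 7.95 and 7.67 in controls and 8.04, 8.24 and 7.97 with MPA, where all MPA arrays were above all controls, at 0.37 (limma adjusted p = 0.374). ABCD2, a relative with very long chain substrates, gave 0.14 at signals below the medians, and ABCD4, the lysosomal member, gave -0.15.

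ABCE1, which splits ribosomes after translation ends, read 8.71, 9.82 and 9.08 in controls and 9.26, 9.81 and 9.00 with MPA. As for ABCD3, control 2 and MPA 2 were the highest arrays of their groups. The log2 fold change was 0.15 (95% interval -0.52 to 0.83, limma adjusted p = 0.947), the widest interval among the 42 genes. With single arrays left out it ran from -0.097 without control 1 to 0.46 without control 2, so that its sign was not settled.

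Subfamily F also works on translation. ABCF1, a partner of the initiation factor eIF2, gave -0.15, ABCF2 gave -0.074 and ABCF3 gave 0.095. ABCF2 was singled out after its values were seen. All 5 of its probe sets were below 0, from -0.24 to -0.074. All MPA arrays lay below all controls in 2 of them, beside 4059 of all 54613 probe sets. The adjusted p-values of those 2 probe sets in limma were 0.502 and 0.718. As for ABCC4, probe sets of one gene read the same RNA samples and are not replicates.

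Subfamily G exports sterols and drugs. ABCG2, the breast cancer resistance protein, gave 4.42, 4.02 and 4.16 in controls and 4.38, 4.14 and 4.59 with MPA. All values were below the array medians and the groups overlapped, with a log2 fold change of 0.17 (95% interval -0.18 to 0.52, limma adjusted p = 0.843). It was 0.059 without MPA 3. The sterol transporters ABCG5 and ABCG8, which work as a heterodimer, gave -0.016 and -0.11, and ABCG4, a sterol exporter best known from brain, gave 0.034.

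ABCG1, which passes cholesterol to HDL particles, was the only ABC gene taken by symbol with a probe set that was called. In its representative probe set it read 4.69, 5.21 and 4.93 in controls and 4.95, 5.03 and 5.52 with MPA, a log2 fold change of 0.22 (95% interval -0.20 to 0.65, limma adjusted p = 0.818), with overlap. This value ran from 0.047 without MPA 3 to 0.36 without control 2. A dimmer probe set read 3.17, 2.89 and 2.62 in controls and 3.94, 3.80 and 3.89 with MPA. Every MPA array was far above every control array there, and all 6 values were below the array medians. That probe set was called higher, with a log2 fold change of 0.99 (95% interval 0.65 to 1.32, limma adjusted p = 0.0114).

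The remaining ABCG1 probe sets gave 0.032 and 0.13 with overlap between groups. The call was lost without MPA 1 (adjusted p = 0.0743), where the log2 fold change was still 0.95, and kept without each of the other arrays (adjusted p = 0.0109 to 0.0489). With all ABCG1 probe sets averaged the log2 fold change was 0.34 (adjusted p = 0.181). The transcripts that each probe set reads were not analysed here.

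Over all ABC probe sets, this was 1 called of 96, beside 2.03% of all probe sets. Of the 42 genes, 13 had a single probe set and 29 had several. The sign was the same in all probe sets of 17 of these 29 genes and mixed in 12, among them ABCA1, ABCC1, ABCC3, ABCC8 and ABCC9.

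**Figure D3:**
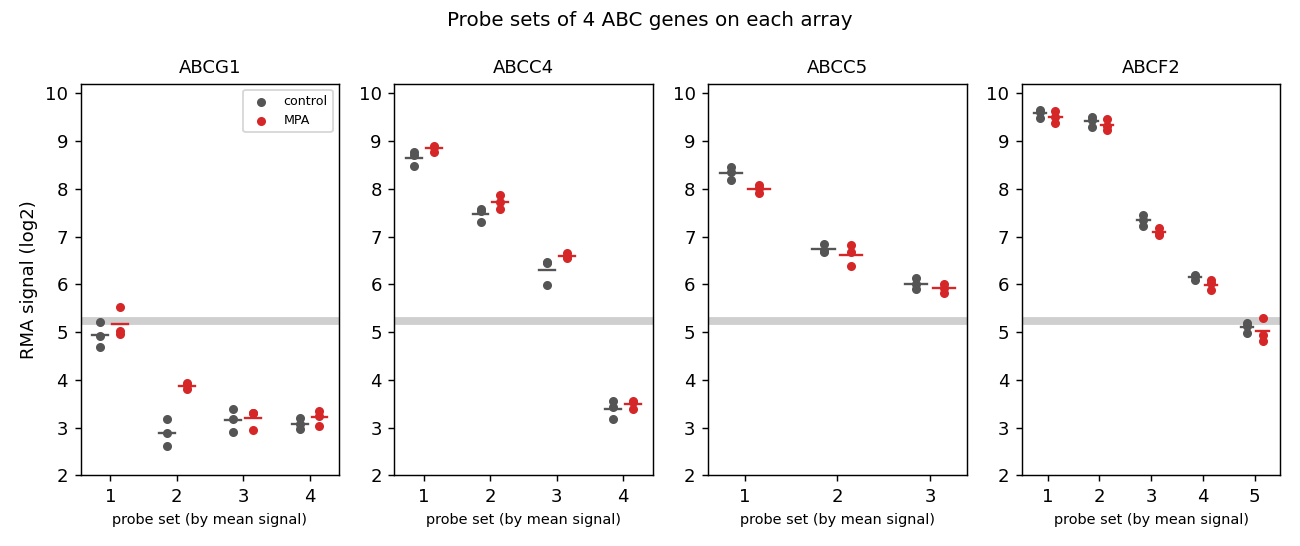
Signal (RMA, log2) on the control arrays (grey points) and MPA arrays (red points) for every probe set of ABCG1, ABCC4, ABCC5 and ABCF2, numbered by falling mean signal, with short lines for group means and a grey band for the range of array medians (5.17 to 5.29). Only probe set 2 of ABCG1 was called (log2 fold change 0.99), and it lies below the band in both groups.

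Family members that carry other symbols were taken from a separate list. TAP2, a subunit of the peptide transporter of antigen presentation, read 6.45, 6.49 and 6.66 in controls and 5.69, 5.996 and 5.83 with MPA. The groups were well apart, and TAP2 was called lower at -0.69 (limma adjusted p = 0.0229). This rested on 1 of 4 TAP2 probe sets. The others gave -0.018, -0.11 and 0.12, the mean of all probe sets gave -0.18 (adjusted p = 0.660), and the call was lost without control 1, control 3, MPA 1 or MPA 3 (adjusted p = 0.0511 to 0.145), where fewer arrays were tested and the log2 fold change stayed between -0.73 and -0.62. TAP1, the other subunit, gave -0.23 (adjusted p = 0.806), and the chloride channel CFTR gave -0.011 (adjusted p = 0.994) at signals below the medians.

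Among the organic ion and drug carriers of the SLCO, SLC22 and SLC47 families, 4 of 14 measured were called higher and 0 lower, beside 1.74% and 1.16% of all genes. The list was chosen with earlier results of these data known, so these shares are not a test of the carriers as a group. SLCO4A1, a carrier of thyroid hormone and organic anions, rose by 1.44 on the log2 scale (adjusted p = 0.00535), although its second probe set gave 0.039. SLC22A5, the carnitine transporter OCTN2, rose by 1.23 (adjusted p = 0.00134), and its second probe set was also called at 0.73. SLCO2A1, a prostaglandin transporter, rose by 1.02 (adjusted p = 0.00678) and SLC22A4, the ergothioneine transporter OCTN1, by 0.83 (adjusted p = 0.00366). For these carriers every MPA array was above every control array. SLC47A1 and SLC47A2, the MATE exporters of organic cations, gave -0.36 and -0.35 (adjusted p = 0.306 and 0.348) with every MPA array below every control array, and these are named after their values were seen.

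Of the pores that pair with ABCC8 and ABCC9, KCNJ8 was called lower. It read 6.64, 6.46 and 6.76 in controls and 5.61, 5.34 and 5.54 with MPA. Every MPA array was well below every control array, with a log2 fold change of -1.12 (limma adjusted p = 0.00245), and its second probe set was called at -1.47. KCNJ11 gave 0.14 (adjusted p = 0.900). Its partners ABCC8 and ABCC9 were not called.

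No gene was called in the lists tied to the remaining functions of the family. These were LXR, lipoprotein and cholesterol traffic around ABCA1 and ABCG1 (0 of 13), xenobiotic sensors (0 of 7), glutathione supply (0 of 7), peroxisome import and beta-oxidation (0 of 8), mitochondrial heme and iron-sulfur metabolism (0 of 11), translation partners of ABCE1 and the F genes (0 of 10), and sphingolipid and surfactant lipids (0 of 8). Their medians ran from -0.12 for mitochondrial heme and iron-sulfur metabolism to 0.14 for xenobiotic sensors. Over all genes 1.74% were called higher and 1.16% lower, so 0 calls do not set lists of this length apart. Unadjusted limma p-values under 0.05 were seen for 0 to 2 genes of a list, beside 11.8% of all genes. The count of 2 was reached by xenobiotic sensors (2 of 7, both higher) and by sphingolipid and surfactant lipids (2 of 8, both lower). In the LXR list MYLIP, the ligase that degrades the LDL receptor, came nearest to a call at -0.51 (limma adjusted p = 0.112).

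**Figure D4:**
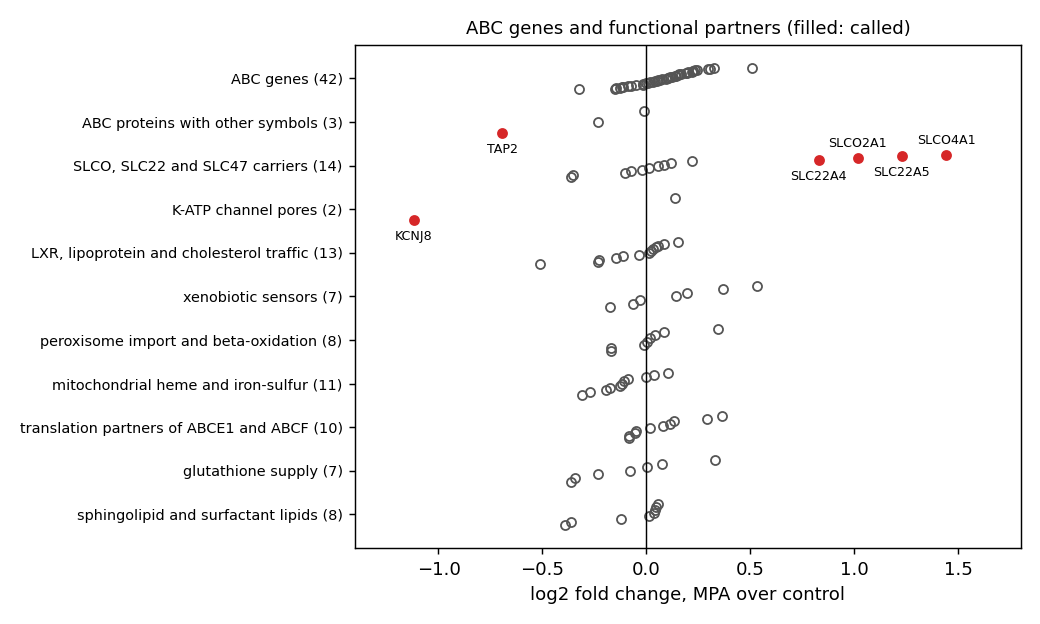
Log2 fold change (MPA over control) of the 42 ABC genes and of 10 lists of related genes, with the number of genes measured in parentheses and 1 point for each gene, spread vertically for visibility. Filled red points were called: TAP2 and KCNJ8 are lower, and SLC22A4, SLCO2A1, SLC22A5 and SLCO4A1 are higher, while all ABC genes lie between -0.32 and 0.51.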

How the data were processed

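The authors deposited log2 signals of 54675 probe sets on 6 Affymetrix U133 Plus 2 arrays, made with RMA, and these were used as deposited. No source used here names the software version. The 62 control probe sets of Affymetrix were dropped. Of the 54613 others, 41091 had 1 symbol in the platform annotation (41037 matched to a RefSeq gene identifier), 1801 had several and 11721 had none. The groups were compared with limma 3.58.1 in R 4.3.3 (lmFit and eBayes, two-sided, no covariate). Depth has no meaning for arrays; the number of arrays limits the precision. The steps were tested on simulated data.

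The members and lists were chosen with earlier results of these data known. Values on every array were to be given for ABC genes that were called, had an unadjusted p under 0.05 or had another called probe set, and for ABCB1, ABCC1, ABCG2, ABCA1 and ABCG1. List genes were to be named where called. MYLIP and genes given with array values outside this rule were chosen after their values were seen. Alternatives were a replicate block, SAM (delta 0.53, all 20 relabelings), an intensity trend, no or a 2-fold minimum, a filter on dim probe sets, housekeeping or quantile scaling, each array left out, the mean of a gene's probe sets, and the annotation's own symbols.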

Additional observations from a re-analysis of the deposited data

How the results depend on the processing

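The count of ABC genes called, 0 higher and 0 lower, was the same under every alternative that was run, including the filter on dim probe sets, which left 23 ABC genes. Over all genes the counts moved to 187 higher and 82 lower with the 2-fold minimum, and to between 191 and 367 higher and 86 and 232 lower with single arrays left out. With the replicate block 0 ABC genes were called, beside 560 higher and 377 lower over all genes. Deviations of same-numbered arrays correlated at -0.017, 0.523 and 0.326, and only control 2, control 3 and MPA 2 correlated best with their own number, so that the numbers were not taken as pairs.

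Scaling by housekeeping genes moved the median log2 fold change of the ABC genes to 0.029 and of subfamily D to 0.066, and turned ABCA1 to -0.020 and ABCB1 to -0.030. The filter on dim probe sets moved the median of A to 0.26 and of D to 0.046. The mean of all probe sets turned ABCA1 to -0.041. With single arrays left out, an alternative added for the medians after the data were seen, the median ran from 0.022 to 0.11 over all ABC genes, 0.047 to 0.21 in A, 0.046 to 0.18 in B, 0.033 to 0.17 in D and -0.14 to -0.0078 in F, and the sign turned in C (-0.046 to 0.078), E (-0.097 to 0.46) and G (-0.053 to 0.085). ABCA1 then ran from -0.023 to 0.17 and ABCB1 from -0.018 to 0.12. Housekeeping scaling moved each gene by the same -0.071, and the filter left fewer genes. The cause of the other moves was not tested. At the 2-fold minimum the calls of TAP2, SLC22A4 and the ABCG1 probe set were lost. The annotation's own symbols changed no value.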
